A study of Mus musculus with 2 samples.

Results

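The 3 SoxF genes *Sox7*, *Sox17* and *Sox18* and the 5 Ets genes *Ets1*, *Ets2*, *Elk3*, *Etv2* and *Etv6* were followed in single PK44 cells of the mouse yolk sac. They were chosen by name, as the SoxF subgroup of the Sox family and the Ets factors best known from endothelium, and make up 8 of the 23154 genes in the count tables. All 8 had a row in both tables, and each was described within each library and set against *Runx1* and *Cdh5* in the same cells. PK44 is the name for cells sorted as positive for CD31, CD201, Kit and CD44 and negative for CD41, CD43 and CD45, which the study describes as hemogenic endothelial cells (HECs) able to give rise to hematopoietic stem cells, and it asked whether those of the yolk sac hold both endothelial and hematopoietic potential. Both libraries came from embryos at E10.0 on a C57BL/6 background with no treatment or mutation named, so there was 1 condition, with 43 cells in replicate 1 and 44 cells in replicate 2. How many embryos were pooled for each library is not given in the sources used here, so p-values speak for these libraries only. Where the library is a term of the fit, they do not measure each gene's own spread between libraries.

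SoxF proteins bind DNA through an HMG box and act, partly in place of each other, in arterial specification and vessel development, and *Sox17* is known to be turned down as blood cells leave the endothelium. Ets factors bind a purine-rich core motif and act on many endothelial genes, among them *Cdh5*, the gene of the adherens junction protein VE-cadherin. *Runx1* encodes the transcription factor required for hemogenic endothelium to form blood, a process in which endothelial genes such as *Cdh5* are lost.

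Cells were sequenced by modified STRT-seq, in which each molecule is tagged at its 3′ end and meant to be counted once by its unique molecular identifier (UMI). Replicate 1 held 8932527 counts in all with a median of 141577 per cell (13218 to 702028), and replicate 2 held 12706360 counts with a median of 238898.5 (51620 to 956593). Levels are given as CPM (the gene's counts per 1000000 counts of the cell or group) and were not divided by gene length, since 1 tag stands for 1 molecule whatever its length. The numbers that end the cell names were not shared between the libraries. Of the 7 endothelial markers examined beside *Cdh5*, all had counts in both libraries. In all, 3 cells (2 in replicate 1 and 1 in replicate 2) held 100 or more counts of each of the mesenchymal genes *Col1a1*, *Col1a2*, *Col3a1* and *Lum*, and calls that changed without them are given both ways.

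On GRCm38 (mm10) with the GENCODE M21 annotation, *Sox7* lay at chr14:63943673-63950732, *Sox17* at chr1:4490931-4497354, *Sox18* at chr2:181669836-181671640 and *Ets1* at chr9:32636221-32757820. *Ets2* lay at chr16:95702075-95721051, *Elk3* at chr10:93247414-93311135, *Etv2* at chr7:30633616-30635852 and *Etv6* at chr6:134035700-134270158. All 8 are protein coding, and *Sox17*, *Sox18*, *Elk3* and *Etv2* are on the minus strand. *Elk3* overlaps *Cdk17* on the opposite strand, which held 1406 counts, and the sources used here do not say whether counting used strand, so reads of this overlap could have been given to either gene.

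Because *Etv6* was the gene of the 8 that followed *Runx1* most closely from cell to cell in both libraries, the 250 bases before the start of each are shown with the Ets core GGAA, on either strand (TTCC on the strand shown), in capitals. The sequences are from RefSeq on GRCm38.p6, the first at chr6:134035450-134035699 on the plus strand and the second at chr16:92697330-92697579 on the minus strand, both outside annotated exons of the gene.
*Etv6*: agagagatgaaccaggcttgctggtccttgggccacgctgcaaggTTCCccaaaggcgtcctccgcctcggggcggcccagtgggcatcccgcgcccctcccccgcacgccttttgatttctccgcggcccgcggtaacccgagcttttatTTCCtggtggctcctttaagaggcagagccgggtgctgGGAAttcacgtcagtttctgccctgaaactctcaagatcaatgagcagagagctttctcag
*Runx1*: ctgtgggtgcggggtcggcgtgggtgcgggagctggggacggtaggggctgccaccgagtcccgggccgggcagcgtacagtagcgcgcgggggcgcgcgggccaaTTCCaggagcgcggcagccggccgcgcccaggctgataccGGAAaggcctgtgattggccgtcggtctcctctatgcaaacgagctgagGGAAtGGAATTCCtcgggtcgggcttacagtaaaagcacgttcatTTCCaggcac
The *Etv6* window held 3 matches and this *Runx1* window 6, while a second *Runx1* start, with its window at chr16:92826075-92826324 and 75 bases of it exonic, had 4 and is not printed. Of 32851 windows of the same length before all gene starts, 93.4% held at least 1 match, 54.7% held 3 or more, 33.4% held 4 or more and 8.69% held 6 or more. The Runx letters TGTGGT, found in 14.0% of all windows, and the Sox letters ACAAT, found in 27.7%, had no match on either strand in these 3 windows, which says nothing of binding.

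By the mean of both libraries the Ets genes *Ets2*, *Elk3* and *Ets1* stood highest. *Ets2*, an Ets factor activated through Ras and MAPK signalling, had 225 CPM in replicate 1 against 301 CPM in replicate 2, a mean of 263 ± 53.7 (SD, n = 2 libraries). *Elk3*, a ternary complex factor that represses its targets until it is phosphorylated, was at 166 and 224 CPM (195 ± 40.6). *Ets1*, the founding member of the family, was at 144 and 153 CPM (149 ± 6.44), by summed counts the closest match between libraries of the 8 genes. With every cell weighted alike, its mean was 244 and 173 CPM. Its Spearman correlation with the total count per cell was -0.37 and -0.31 in replicates 1 and 2. By summed counts *Ets2* exceeded *Elk3*, and *Elk3* exceeded *Ets1*, in both libraries. Cells differed widely, with the highest at 1406 and 1663 CPM of *Ets2*, 946 and 739 CPM of *Elk3* and 1748 and 697 CPM of *Ets1* in replicates 1 and 2. The median cell held *Ets2* at 72.0 and 286 CPM, *Elk3* at 95.3 and 174 CPM and *Ets1* at 146 and 139 CPM, so by medians *Ets1* came first in replicate 1 and last of these in replicate 2. A count was found in 79, 78 and 81 of 87 cells for *Ets2*, *Elk3* and *Ets1*, and in 66, 64 and 58 of 86 cells once every cell was thinned to 20000 counts, which left out 1 shallow cell.

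The SoxF genes and *Etv6* followed. *Sox17*, which is tied to arterial identity, had 27.1 CPM in replicate 1 against 158 CPM in replicate 2 (92.6 ± 92.7, SD, n = 2). *Sox7* was at 52.6 and 116 CPM (84.5 ± 45.2), and *Sox18*, which is also required for lymphatic specification, at 52.5 and 109 CPM (80.8 ± 39.9). *Etv6*, a repressor required for hematopoietic stem cell maintenance, was at 87.9 and 62.3 CPM (75.1 ± 18.1). The median cell held *Etv6* at 3.51 and 10.3 CPM, and the highest at 538 and 309 CPM. A count of *Etv6* was found in 54 of 87 cells, against 76 for *Sox18*, 63 for *Sox7* and 57 for *Sox17*. The ranges of *Sox17*, *Sox7*, *Sox18* and *Etv6* overlapped, and *Sox17* in replicate 2 lay above *Ets1* in either library, so their order, and that of *Sox17* and *Ets1*, could not be told from 2 libraries. For scale, *Cdh5* was at 463 and 632 CPM with a count in all 87 cells, and *Runx1* at 300.4 and 136 CPM with a count in 68 cells.

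**Figure D1:**
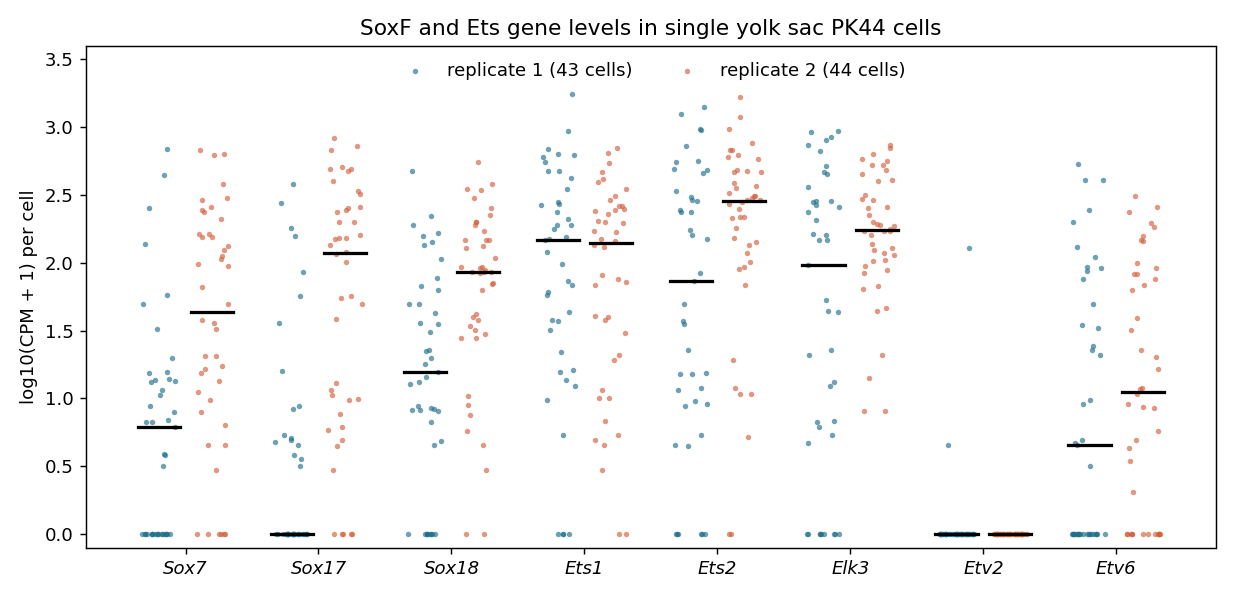
Level of each SoxF and Ets gene in each cell, as log10(CPM + 1) with 1 point per cell and a bar at the median of each library. The medians of *Sox7*, *Sox17* and *Sox18* lie higher in replicate 2 than in replicate 1, those of *Ets1* lie together, and *Etv2* is at 0 in all but 2 cells.

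*Etv2*, the pioneer Ets factor that starts the hemangiogenic program in mesoderm and is normally switched off soon after, was nearly absent. It had 60 counts in replicate 1, of which 59 came from 1 cell and 1 from another. In replicate 2 it had a count in 0 of 44 cells, which allows a share of cells with a count of up to 6.82% (3 of the 44 cells, counting error only). The cell with 59 counts, numbered 40, was deep (459272 counts) and held *Etv2* at 128 CPM beside *Etv6* at 407, *Runx1* at 253, *Cdh5* at 148, *Sox18* at 142 and *Kit*, a marker of the sort, at 403 CPM. *Sox7* and *Sox17* were at 2.18 CPM in it, the worth of 1 count each. With 1 such cell, nothing can be said of how often it occurs.

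All 3 SoxF genes were at least 2 times higher in replicate 2 than in replicate 1, by 5.84-fold for *Sox17*, 2.21-fold for *Sox7* and 2.08-fold for *Sox18*. Of 8727 genes with a mean of 10 CPM or more, 14.8% were at least 2 times higher in replicate 2 and 12.1% were so in replicate 1. By summed counts the 4 Ets genes other than *Etv2* stayed within 2-fold. Replicate 2 over replicate 1 was 1.34 for *Ets2*, 1.35 for *Elk3*, 1.06 for *Ets1* and 0.709 for *Etv6*. By cell medians the same ratio was 3.97 for *Ets2*, 2.92 for *Etv6*, 1.82 for *Elk3* and 0.954 for *Ets1*. It was 8.35 for *Sox7* and 5.81 for *Sox18*, and could not be formed for *Sox17*, with a median of 0 in replicate 1. With 1 library on each side these differences have no replicate check. The 2 libraries also differed in *Cdh5* (1.37-fold higher in replicate 2) and *Runx1* (0.454-fold). Other endothelial genes listed below were higher in replicate 2 as well, such as *Gja5* (126 and 615 CPM in replicates 1 and 2), *Cldn5* (389 and 961 CPM) and *Nrp1* (506 and 651 CPM). Only *Notch1* (327 and 250 CPM) and *Notch4* (72.3 and 64.9 CPM) of that list were lower there. The part of these differences in that of the SoxF genes was not tested.

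The SoxF difference was spread over cells. The median *Sox17* level was 0 in replicate 1 and in replicate 2 it was 117 CPM, that of *Sox7* was 5.11 and 42.7 CPM, and that of *Sox18* was 14.6 and 84.7 CPM. In replicate 1 most SoxF counts sat in a handful of cells. The 3 highest cells held 84.9% of all *Sox7* counts and 77.3% of all *Sox17* counts there, against 35.4% and 33.6% in replicate 2. *Sox18* and *Ets1* were more even in replicate 1, with 44.4% and 26.2% of counts in their 3 highest cells. The single highest *Sox7* and *Sox17* cell of replicate 1, numbered 9, held *Sox7* at 687, *Sox17* at 381, *Sox18* at 158 and *Cdh5* at 1912 CPM, with no count of *Runx1* or *Etv6*. Its counterpart in replicate 2, numbered 57, held *Sox7* at 675, *Sox17* at 833 and *Cdh5* at 1956 CPM, with *Runx1* at 4.53 CPM, the worth of 1 count.

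Cells often held more than 1 SoxF gene. In replicate 2 a count of all 3 was found in 33 of 44 cells, of 2 in 9 cells and of 1 in 2 cells. In replicate 1 the corresponding numbers were 10, 17 and 13 of 43 cells, and 3 cells had none. At 10 or more counts per gene, 12 cells of replicate 2 and 1 cell of replicate 1 held all 3, while 8 and 28 cells held none. After thinning to 20000 counts, 15 of 44 cells and 1 of 42 cells held all 3. Among cells with 10 or more counts of any SoxF gene, the most abundant was *Sox18* in 10 of 15 cells of replicate 1, whereas *Sox17* led in 17, *Sox18* in 11 and *Sox7* in 8 of 36 cells of replicate 2.

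To compare the genes across *Runx1* levels, cells were ranked by *Runx1* CPM within each library and split into Runx1-high cells (21 and 22 cells) and Runx1-low cells (22 and 22 cells), and the counts of each group were summed, giving 4 sums. Without a term for the library, 0 of the 7 SoxF and Ets genes that passed the filter on low counts (*Etv2* did not) were called by edgeR's quasi-likelihood test after Benjamini-Hochberg adjustment, and 2 of them, *Etv6* and *Sox17*, had an unadjusted p under 0.05. DESeq2 also called 0 of the 7, and 128 of all genes. In edgeR the background was 0.00941% of 10629 genes called and 5.53% with an unadjusted p under 0.05. This fit sets only 2 sums against 2, and a count of 0 from it does not show that the genes did not differ. The sums pair by library, and with the library as a block 1 of the 7, *Sox17*, was called, beside 1.56% of all genes and 1.19% called lower in Runx1-high cells, and 2 of the 7 and 8.66% of all genes had an unadjusted p under 0.05.

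*Sox17* was lower in Runx1-high cells when libraries were blocked. It was at 13.7 CPM in Runx1-high and 51.4 CPM in Runx1-low cells of replicate 1, and at 62.9 and 300.2 CPM in replicate 2, so it was lower in the Runx1-high cells of both libraries, though the Runx1-high sum of replicate 2 lay above the Runx1-low sum of replicate 1. The log2 fold change was -2.12 with a standard error (SE) of 0.56 (edgeR with library block, adjusted p = 0.0162), against -2.21 (SE 0.91, adjusted p = 0.878, edgeR) without the block. By tertiles of *Runx1* level from low to high (14, 15 and 14 cells in replicate 1 and 14, 16 and 14 in replicate 2), *Sox17* went from 76.7 to 18.8 and 6.80 CPM in replicate 1 and from 333 to 146 and 55.1 CPM in replicate 2. The call did not hold once cells were thinned to 20000 counts, where the log2 fold change with the block was -0.72 (SE 0.65, edgeR adjusted p = 0.884). Over single cells, the median *Sox17* level of replicate 2 was 24.6 CPM in Runx1-high and 218 CPM in Runx1-low cells, with highest cells at 683 and 833 CPM, while in replicate 1 the medians were 2.18 and 0 CPM and the highest cells 181 and 381 CPM. In replicate 1 the level rested on few cells, and without its 3 highest *Sox17* cells the log2 difference shrank from -1.91 to -0.64 (from -2.26 to -1.84 in replicate 2). The share of cells with a count ran the other way in replicate 1, with 11 of 21 Runx1-high and 7 of 22 Runx1-low cells, in which the median depth was 260240 and 95376 counts. At equal depth, with cells split anew by thinned *Runx1* counts, it was 2 of 21 and 4 of 21.

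**Figure D2:**
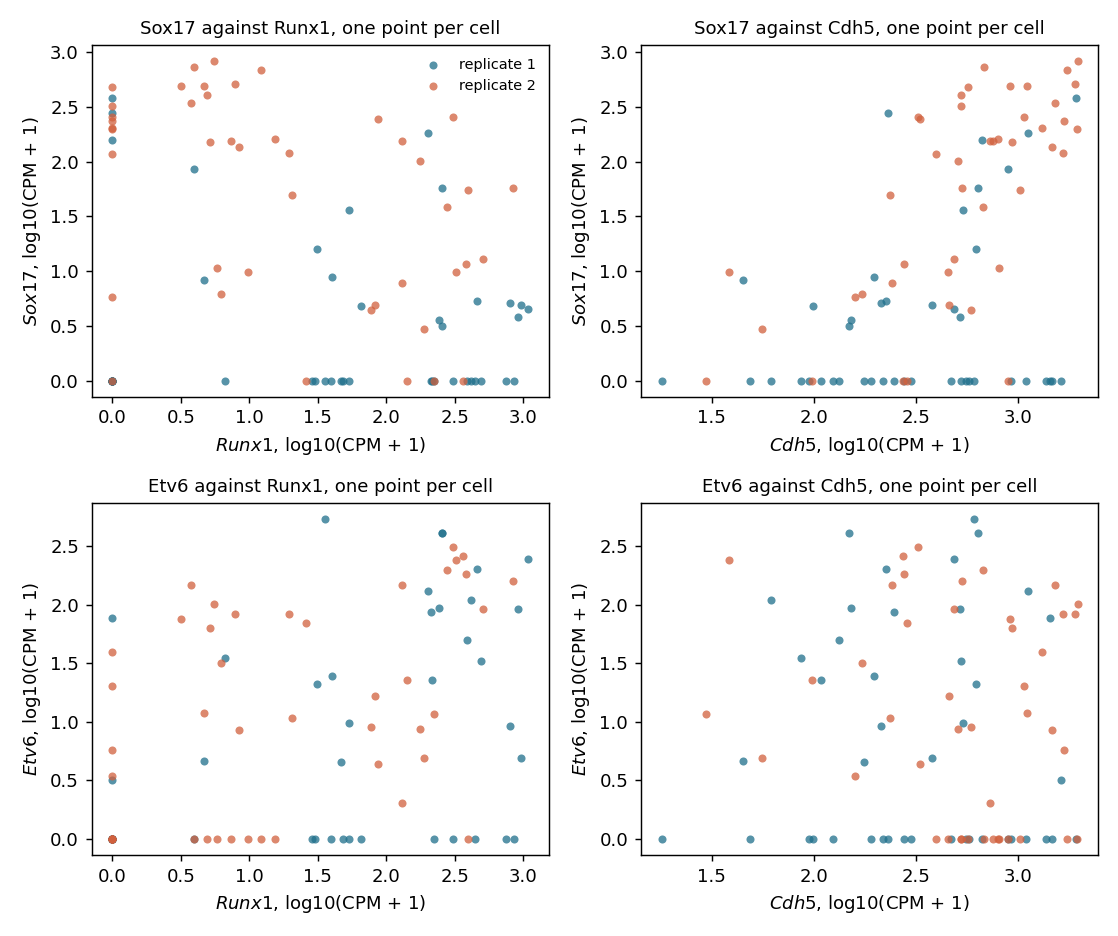
*Sox17* (top) and *Etv6* (bottom) against *Runx1* (left) and *Cdh5* (right), both axes as log10(CPM + 1), with 1 point per cell coloured by library. In replicate 2 the highest *Sox17* cells lie at low *Runx1* and high *Cdh5*, while the highest *Etv6* cells of both libraries lie mostly at high *Runx1*.

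*Etv6* had a higher level in the Runx1-high cells of both libraries, but it was not called in any of the 12 versions of the edgeR and DESeq2 fits (lowest adjusted p = 0.138). It was at 125 CPM in Runx1-high and 20.2 CPM in Runx1-low cells of replicate 1, and at 83.9 and 30.2 CPM in replicate 2. The log2 fold change was 2.03 (SE 0.66, edgeR adjusted p = 0.780) and 2.02 with the block (SE 0.76, edgeR adjusted p = 0.218). By tertiles it went from 4.34 to 61.6 and 154 CPM in replicate 1 and from 27.4 to 25.6 and 107 CPM in replicate 2. A count of *Etv6* was found in 15 of 21 Runx1-high and 8 of 22 Runx1-low cells of replicate 1, and in 19 of 22 and 12 of 22 cells of replicate 2. Cells were also thinned to 20000 counts and split anew by their thinned *Runx1* counts. The shares were then 11 of 21 and 3 of 21, and 10 of 22 and 7 of 22 cells. In replicate 2, 17 of the 22 cells of the new Runx1-high group held a *Runx1* count, the others being placed by barcode name. The highest *Etv6* cell was Runx1-low in replicate 1 (538 CPM, against 407) and Runx1-high in replicate 2 (309 CPM, against 145). Without its 3 highest *Etv6* cells the log2 difference went from 2.63 to 1.66 in replicate 1 and from 1.48 to 0.84 in replicate 2. The fit on thinned cells with the block gave a log2 fold change of 0.96 (SE 0.74, edgeR adjusted p = 0.833). Depth moved with both genes: the Spearman correlation with the total count per cell was 0.48 and 0.30 for *Etv6* and 0.34 and 0.35 for *Runx1*, in replicates 1 and 2.

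The other genes showed no difference that passed the test. *Sox7* was at 39.6 against 76.3 CPM (Runx1-high against Runx1-low) in replicate 1 and 94.2 against 149.7 CPM in replicate 2, with a log2 fold change of -0.78 (SE 0.64). *Sox18* had a log2 fold change of -0.61 (SE 0.63), which turned to 0.26 in thinned cells. *Ets1* was at 91.8 against 239 CPM in replicate 1 but 148 against 160 CPM in replicate 2 (log2 fold change -0.77, SE 0.49). Its medians were closer between libraries, at 59.7 against 199 CPM in replicate 1 and 39.4 against 196 CPM in replicate 2. Without the 3 highest *Ets1* cells the log2 difference went from -1.38 to -0.82 in replicate 1 and from -0.11 to -0.85 in replicate 2. *Ets2* (-0.11, SE 0.41) and *Elk3* (-0.19, SE 0.44) had log2 fold changes smaller than their standard errors. The lowest adjusted p of these 5 genes over the 12 versions of the edgeR and DESeq2 fits was 0.607, for *Ets1*.

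Mesenchymal markers moved with this split. All 3 mesenchymal cells fell in the Runx1-low groups, and the 8 markers summed to 54.7 CPM in Runx1-high and 2314 CPM in Runx1-low cells of replicate 1 (29.3 and 805 CPM in replicate 2), or 92.4 and 37.5 CPM in Runx1-low cells without those cells. The 8 macrophage markers summed to 92.0 and 33.7 CPM in Runx1-high and Runx1-low cells of replicate 1 and to 50.9 and 11.8 CPM in replicate 2, with *Cx3cr1*, *Adgre1*, *C1qa* and *C1qb* at 0 in both. The 8 visceral endoderm markers summed to 68.8 and 38.8 and to 72.1 and 85.6 CPM, with *Apob*, *Rbp4*, *Foxa2* and *Cubn* at 0 in both. *Afp*, *Ttr* and *Apoa1* were also at 0 in replicate 1, where the sum came from *Trf* alone. The 9 erythroid markers summed to 18.2 and 4.41 and to 33.1 and 6.47 CPM, with *Hba-a1*, *Hba-a2*, *Hbb-bt* and *Hbb-bs* at 0 in both. The part of these markers in the results was not tested, other than by leaving out the mesenchymal cells. The *Sox17* call was as large without them (log2 fold change -2.35, SE 0.58, edgeR with library block, adjusted p = 0.00939).

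The same steps were run with cells ranked by *Cdh5*. Without the block, 0 of the 7 genes and 0 of 10692 genes (0% called) passed edgeR's adjusted test, with 3 of the 7 (*Elk3*, *Ets2* and *Sox7*) and 5.01% of all genes at an unadjusted p under 0.05, and DESeq2 called 0 of the 7 and 41 of all genes. With the library block, 3 of the 7 rose in Cdh5-high cells, namely *Sox7*, *Sox17* and *Ets2*, beside 1.73% of all genes called in either direction and 1.17% called higher, and 4 of the 7 and 9.12% of all genes had an unadjusted p under 0.05. The 2 rankings share all cells, so their results are not separate evidence. Of the Runx1-high cells, 9 of 21 in replicate 1 and 7 of 22 in replicate 2 were also Cdh5-high.

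*Sox7* was at a level of 117 CPM in Cdh5-high and 6.72 CPM in Cdh5-low cells of replicate 1, and at 184 and 54.4 CPM in replicate 2. Its log2 fold change was 2.87 (SE 0.62, edgeR with library block, adjusted p = 0.000797), and 2.28 (SE 0.87, edgeR adjusted p = 0.974) without the block. *Sox17* was at 59.0 and 4.23 CPM in replicate 1 and at 239 and 83.9 CPM in replicate 2. Its log2 fold change was 2.56 (SE 0.60, edgeR with library block, adjusted p = 0.00279), and 1.73 (SE 1.12, edgeR adjusted p = 0.994) without the block. In each library both genes were higher in the Cdh5-high cells, and the Cdh5-low sums of replicate 2 reached the Cdh5-high level of replicate 1 for *Sox17* only. The 3 highest cells carried much of this in replicate 1: without them the log2 difference was 0.90 for *Sox7* and 1.46 for *Sox17*, against 4.12 and 3.80 with them, and in replicate 2 it was 1.23 and 1.70, against 1.76 and 1.51. Over single cells of replicate 2 the median *Sox7* level was 143 CPM in Cdh5-high and 17.5 CPM in Cdh5-low cells and that of *Sox17* was 178 and 9.70 CPM. In replicate 1 the median *Sox7* level was 0 and 5.69 CPM and that of *Sox17* was 0 in both groups, so there the difference lay in the few highest cells. Shares of cells with a count of *Sox7* did not follow its level. In replicate 1 they were 10 of 21 Cdh5-high and 15 of 22 Cdh5-low cells, with median depths of 93911 and 168606 counts. At equal depth, with cells split anew by thinned *Cdh5* counts, they were 6 of 21 and 3 of 21 cells. Thinning ended both calls, leaving log2 fold changes of 1.67 for *Sox7* (SE 0.72, adjusted p = 0.468) and 1.93 for *Sox17* (SE 0.69, adjusted p = 0.285) in edgeR with the library block.

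*Ets2* was at 380 CPM in Cdh5-high and 115 CPM in Cdh5-low cells of replicate 1, and at 393 and 217 CPM in replicate 2. Single cells overlapped, with medians of 148 and 29.3 CPM in replicate 1 and 296 and 264 CPM in replicate 2. The highest *Ets2* cell of replicate 1 was Cdh5-low (1406 CPM, against 1253). Without the 3 highest *Ets2* cells the log2 difference went from 1.72 to 1.07 in replicate 1 and from 0.86 to 0.49 in replicate 2. The log2 fold change of *Ets2* was 1.27 (SE 0.35, edgeR with library block, adjusted p = 0.0262). This call was lost without the 3 mesenchymal cells, all of which were Cdh5-low (0.76, SE 0.35, edgeR with library block, adjusted p = 0.408), and in thinned cells (0.54, SE 0.37, adjusted p = 0.796). Macrophage markers also differed by this split, at 3.22 CPM in Cdh5-high and 120 CPM in Cdh5-low cells of replicate 1 and 16.3 and 52.4 CPM in replicate 2. Visceral endoderm markers were at 14.8 and 89.1 CPM in replicate 1 (*Trf* alone) and at 75.4 and 79.4 CPM in replicate 2. Erythroid markers were at 4.02 and 19.98 CPM and at 23.9 and 21.1 CPM. The part of these markers was not tested. *Elk3* was at 248 and 107 CPM in replicate 1 and at 289 and 164 CPM in replicate 2, and its log2 fold change of 1.00 with the block did not pass (SE 0.39, edgeR adjusted p = 0.245). *Sox18* had 1.14 (SE 0.59), *Ets1* 0.70 (SE 0.43) and *Etv6* -0.52 (SE 0.62) as log2 fold changes with the block, none of them called. *Etv6* was thus the 1 gene of the 7 with a higher level in Cdh5-low cells, at 90.1 against 84.8 CPM in replicate 1 and 80.3 against 42.7 CPM in replicate 2. In replicate 1 this rested on few cells. Without the 3 highest *Etv6* cells the log2 difference turned from -0.09 to 0.67 there, and went from -0.91 to -0.95 in replicate 2.

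**Figure D3:**
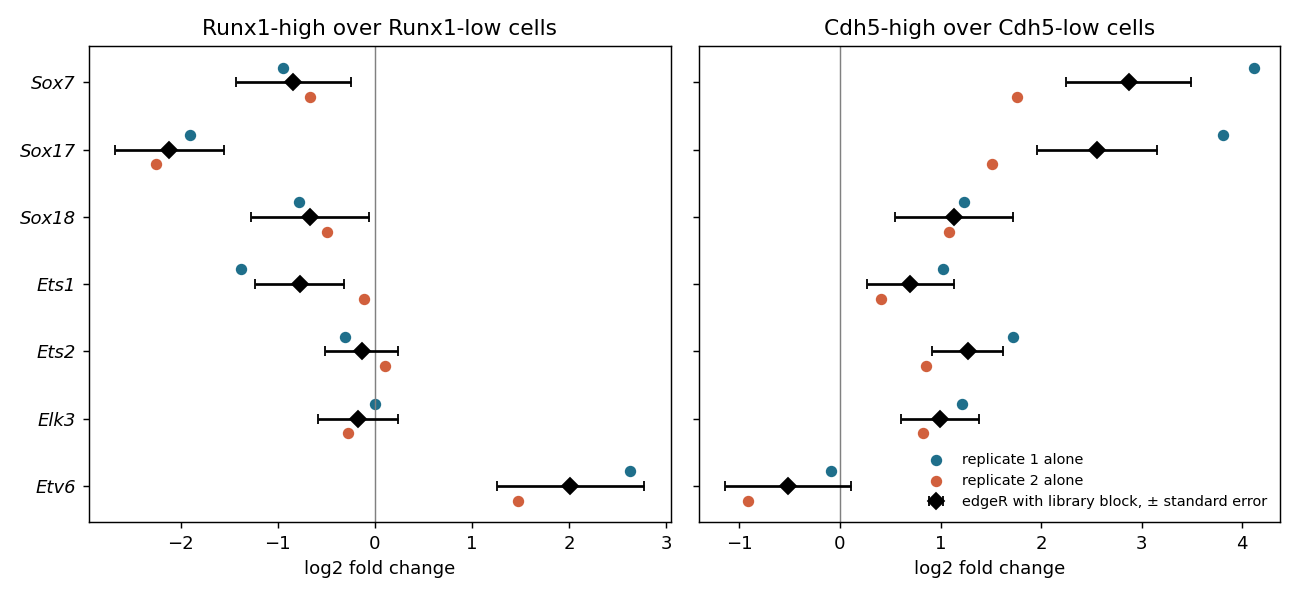
Log2 fold change of each gene between Runx1-high and Runx1-low cells (left) and between Cdh5-high and Cdh5-low cells (right), with coloured points for each library alone and black diamonds for the edgeR fit with the library as a block, with bars of 1 SE on either side. *Sox17* lies at -2.12 on the left, and *Sox7* and *Sox17* lie at 2.87 and 2.56 on the right.

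**Figure D4:**
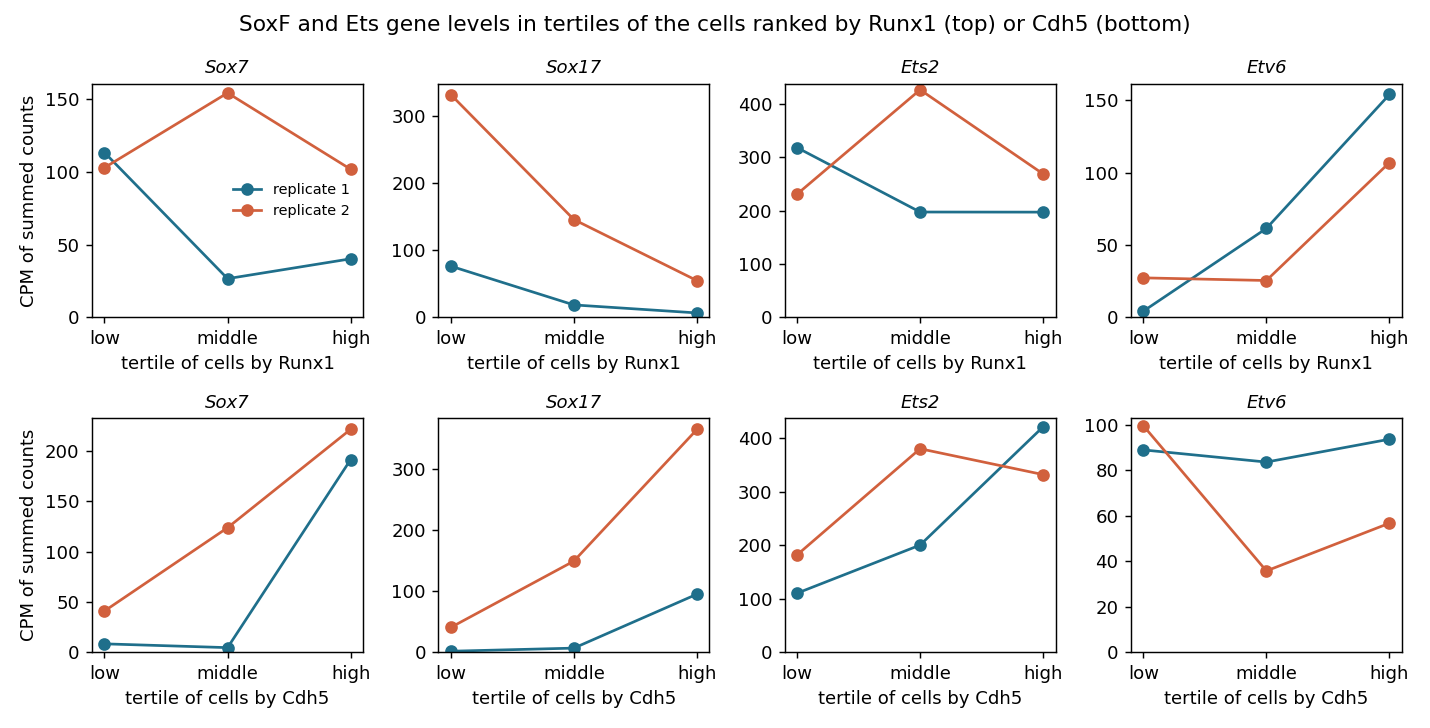
CPM of summed counts of *Sox7*, *Sox17*, *Ets2* and *Etv6* in tertiles of the cells of each library, ranked by *Runx1* (top) or *Cdh5* (bottom), with 1 line per library. *Sox17* steps down with *Runx1* and up with *Cdh5* in both libraries, and *Sox7* in replicate 1 is high in the highest *Cdh5* tertile only (192 CPM, against 4.58 and 8.36 CPM in the middle and lowest).

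Rank correlations over single cells are given as a description, since cells of 1 library share its preparation and differ in depth. With *Cdh5*, the Spearman correlation of *Sox17* was 0.19 over the 43 cells of replicate 1 and 0.66 over the 44 cells of replicate 2, and that of *Sox7* was 0.00 and 0.41. *Elk3* (0.24 and 0.46) and *Ets1* (0.28 and 0.38) had positive correlations with *Cdh5* in both libraries. With *Runx1*, *Etv6* was at 0.42 and 0.47 and *Ets1* at -0.34 and -0.32, whereas *Sox17* was at 0.01 in replicate 1 and -0.46 in replicate 2. *Runx1* and *Cdh5* themselves were at -0.35 and -0.47, and at -0.14 and -0.34 in thinned cells. By summed counts *Cdh5* was lower in Runx1-high than in Runx1-low cells of both libraries (315 against 732 CPM and 432 against 931 CPM). Summed *Runx1* was higher in Cdh5-high than in Cdh5-low cells of replicate 1 (365 against 254 CPM) and lower in replicate 2 (63.9 against 203 CPM). In thinned cells *Sox7* was at 0.30 and 0.37 with *Cdh5*, *Ets1* at 0.14 and 0.30 with *Cdh5* and at -0.20 and -0.35 with *Runx1*, *Sox17* was at -0.20 and -0.42 with *Runx1* and at 0.38 and 0.52 with *Cdh5*, and *Etv6* at 0.31 and 0.31 with *Runx1*.

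Among themselves, the Ets genes *Ets1* and *Ets2* had the highest correlation that both libraries reached, at 0.39 and 0.46 in replicates 1 and 2, followed by *Ets1* and *Elk3* at 0.33 and 0.40. *Sox7* and *Sox17* were at 0.14 and 0.43, and *Sox17* and *Sox18* at -0.15 and 0.31. *Sox18* and *Ets1* were at 0.50 in replicate 2 but 0.05 in replicate 1. *Etv6* was negatively correlated with *Sox18* in both libraries, at -0.17 and -0.48. The order of the pairs changed in thinned cells, where *Ets1* was at 0.43 and 0.40 with *Ets2* but at 0.20 and 0.13 with *Elk3*, *Sox7* and *Sox17* were at 0.48 and 0.29, *Sox17* and *Sox18* at -0.19 and 0.13, *Sox18* and *Ets1* at 0.24 and 0.44, and *Etv6* and *Sox18* at -0.23 and -0.24.

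**Figure D5:**
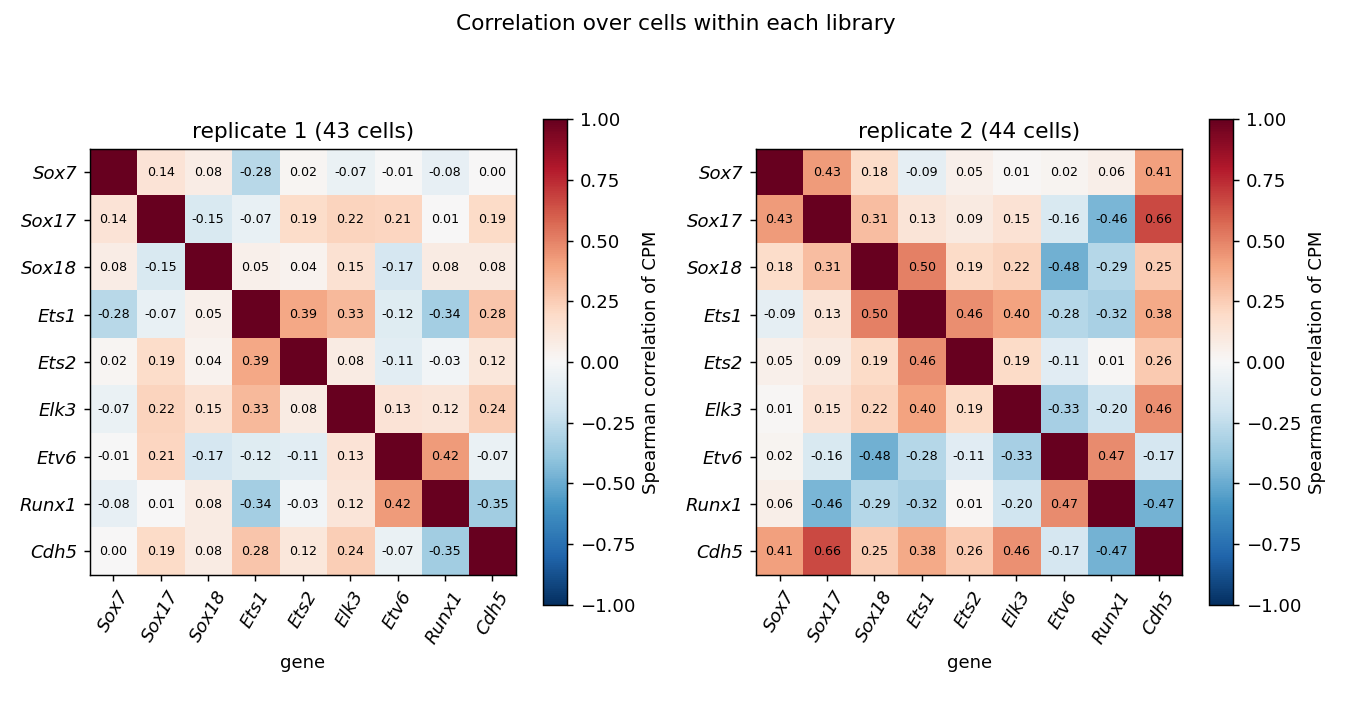
Spearman correlation of CPM over cells between 7 of the SoxF and Ets genes, *Runx1* and *Cdh5*, in replicate 1 (left, 43 cells) and replicate 2 (right, 44 cells), from -1 in blue to 1 in red. *Ets1* with *Ets2* (0.39 and 0.46) and *Etv6* with *Runx1* (0.42 and 0.47) are similar in both, and the SoxF correlations with *Cdh5* are higher in replicate 2, which in thinned cells was not so for *Sox18* (0.16 and 0.12).

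For each gene with a count in at least 50% of cells in both libraries (6 of the 8, without *Sox17* and *Etv2*), the genes most like it were those with the highest value of the lower of its 2 correlations, among 3661 genes. They were *Npr3*, *Pecam1* and *Sdpr* for *Sox7* (0.53 and 0.44 for *Npr3*), and *Esam*, *Trim47* and *Plk2* for *Sox18* (0.34 and 0.34 for *Esam*). For *Ets1* they were *Sepp1*, *Marcks* and *Oit3* (0.49 and 0.64 for *Sepp1*), with *Ets2* at rank 5. For *Ets2* they were *Maf*, *Dab2* and *Mrc1* (0.58 and 0.53 for *Maf*), and for *Elk3* they were *Elovl5*, *Nrp1* and *Ets1* (0.41 and 0.41 for *Elovl5*). For *Etv6* they were *Ppp5c*, *Plcg2* and *E2f3* (0.65 and 0.58 for *Ppp5c*), and *Runx1* came at rank 7. In thinned cells the first of these genes stood at 0.39 and 0.50 for *Sox7*, 0.29 and -0.03 for *Sox18*, 0.27 and 0.64 for *Ets1*, 0.47 and 0.52 for *Ets2*, 0.56 and 0.35 for *Elk3* and 0.36 and 0.45 for *Etv6*, so the likeness of *Esam* to *Sox18* did not hold in replicate 2 at equal depth.

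The rest of both families was described by lists drawn up by name. Of 22 other Ets genes, 21 were in the tables, 10 had a mean of 10 CPM or more and 6 had no count. *Elf1* (161 CPM), *Fli1* (154 CPM), *Erg* (110 CPM) and *Spi1* (104 CPM) were the most abundant, in the range of *Ets1*. Without the block 0 of 11 tested were called in either comparison, as in the other lists below. With it, *Elf1*, which acts in blood and endothelial cells, was higher in Runx1-high cells (log2 fold change 1.67, SE 0.49, edgeR adjusted p = 0.0422), and *Spi1*, the myeloid factor PU.1, was lower in Cdh5-high cells (-2.03, SE 0.60, edgeR adjusted p = 0.0447). The *Elf1* call was lost without the mesenchymal cells (1.596, SE 0.51, edgeR with library block, adjusted p = 0.0899) and in thinned cells (1.505, SE 0.53, adjusted p = 0.208), and the *Spi1* call in thinned cells (-2.58, SE 0.74, adjusted p = 0.121). The median log2 fold change of the 11 with the block was 0.51 between Runx1-high and Runx1-low cells, against 0.07 for all genes, and 0.56 between Cdh5-high and Cdh5-low cells, against -0.05. Without the mesenchymal cells these medians were 0.16 and 0.33. *Fli1* and *Erg*, partners of the SoxF genes in endothelium, were not called in either (0.35 and -0.76 by *Runx1*, 0.80 and 0.82 by *Cdh5*, as log2 fold changes).

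Of 16 other Sox genes 9 had no count and 6 were tested. *Sox4* (86.3 CPM), a SoxC gene, was lower in Runx1-high cells (log2 fold change -2.29, SE 0.60, edgeR with library block, adjusted p = 0.0148) and higher in Cdh5-high cells (2.08, SE 0.59, edgeR with library block, adjusted p = 0.03), as *Sox17* was. *Sox13*, which was all but confined to replicate 2 (57.2 CPM, against 0.11 in replicate 1), was also called lower in Runx1-high cells (-6.00, SE 1.75, edgeR with library block, adjusted p = 0.0408). The *Sox13* call was lost without the mesenchymal cells (adjusted p = 0.0632), and both calls by *Runx1* were lost in thinned cells (-0.64, SE 0.66, adjusted p = 0.909 for *Sox4*, and adjusted p = 0.968 for *Sox13*), whereas *Sox4* stayed called by *Cdh5* in both (edgeR with library block, adjusted p = 0.00297 and 0.0468). The medians of the 6 were -1.66 by *Runx1* and 2.17 by *Cdh5*, beside 0.07 and -0.05 for all genes.

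Endothelial and hematopoietic genes place the SoxF and Ets results. With the block, 11 of 28 endothelial genes were called lower and 0 higher in Runx1-high cells, with a median log2 fold change of -1.17 and with *Cldn5* at -1.30 and *Nrp1* at -1.41 among those called. Over all genes, 1.19% were called lower and 0.376% higher by *Runx1*, with a median of 0.07. In Cdh5-high cells 16 of 26 were called higher and 0 lower, with a median of 1.38 and with *Kdr*, a VEGF receptor, at 1.85. Over all genes, 1.17% were called higher and 0.561% lower by *Cdh5*, with a median of -0.05. Of the hematopoietic genes, 6 of 25 were called higher in Runx1-high cells (median 1.91), including *Adgrg1* at 2.25 and *Coro1a* at 3.49, and 6 of 26 were called lower in Cdh5-high cells (median -1.40). Without the mesenchymal cells the endothelial calls became 14 of 27 and 18 of 26 and the hematopoietic calls 6 of 25 and 5 of 26, and in thinned cells they fell to 5 of 27 and 4 of 26 and to 1 of 19 and 0 of 20. Of all genes, 147 of 10496 by *Runx1* and 225 of 10553 by *Cdh5* were called in either direction without the mesenchymal cells. In thinned cells the numbers were 64 of 6871 and 38 of 6853. By *Runx1*, with the block, *Sox17* had a log2 fold change larger in size than the endothelial median, and *Sox7* (-0.84), *Ets1*, *Sox18*, *Ets2* and *Elk3* smaller ones, and *Etv6* lay near the hematopoietic median, as descriptions that were not tested. In thinned cells *Sox17* was at -0.72 beside an endothelial median of -0.74, and *Etv6* at 0.96 beside a hematopoietic median of 1.48.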

How the data were processed

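Single PK44 cells of 2 yolk sac libraries were profiled by modified STRT-seq. Reads were assigned to cells by barcode, aligned to mm10 by HISAT2 2.1.0 and counted per gene by HTSeq with UMI duplicates collapsed, and the authors kept cells by transcript, gene and read numbers. The deposited values are whole-number counts per gene and cell with no normalization. The median of values above 0 was 12, so whether every PCR duplicate was removed cannot be told from the tables, and intervals and floors cover counting error only. Symbols were matched to GENCODE M21 (22124 of 23154 found). No doublet caller was run.

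Members and gene lists were chosen with earlier results of these data known. Cells were ranked by *Runx1* or *Cdh5* CPM within each library (ties by barcode name), split into upper and lower groups, and counts were summed, since cells are not replicates. The ranking gene itself got no test. The 4 sums were tested with edgeR 4.0.16 in R 4.3.3 (TMM factors, filterByExpr, the quasi-likelihood test and Benjamini-Hochberg adjusted p under 0.05 over all genes) without a block, as the study names none. Sums of 1 library share cells' preparation and therefore pair. Deviations from group means correlated at 0.197 over 10630 genes (*Runx1*) and 0.189 over 10693 genes (*Cdh5*). A fit that blocks on library is given beside each result it changes. It leaves each gene little spread of its own among the 4 sums, so its p-values rest largely on a dispersion pooled over genes. SE was taken as the log2 fold change over the square root of F. Alternatives were DESeq2 1.42.0, relative log expression factors, no low-count filter, tertiles of cells, cells thinned to 20000 counts, no mesenchymal cells and each library alone.

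The fits were tested on simulated data with known changes. There the fit without a block missed changes of the size seen here. The blocked fit missed part of the changes of that size and nearly all smaller ones, so a gene not called may still differ. Named genes were the 8 members, *Runx1*, *Cdh5*, the 3 genes most like each member, and up to 4 genes of highest mean CPM per list. Cells named by number, list genes called and *Kit* were chosen after their values were seen. Other steps used scipy 1.17.1, numpy 2.4.6, pandas 2.3.3 and matplotlib 3.10.9 under Python 3.11.15. RefSeq windows of *Sox7*, *Sox17*, *Sox18* and *Ets1* are not shown.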

Additional observations from a re-analysis of the deposited data

How the results depend on the processing

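Of the genes set against *Runx1*, the number called was 0 in the fit without a library block and in every version without one (DESeq2, other size factors, no filter, tertiles, thinned, no mesenchymal cells). With the replicate block it was 1, also by tertiles, without mesenchymal cells and without the filter, and 0 when thinned. Against *Cdh5* it was likewise 0 without a block and 3 with the replicate block, 2 by tertiles, 2 without mesenchymal cells, 3 without the filter and 0 when thinned. The versions that combine the block with another change were added after the data had been seen. Over all genes the number called by *Runx1*, 1 in edgeR without a block, was 128 in DESeq2, 67 without the filter, 0 by tertiles, 3 when thinned and 0 without mesenchymal cells, and with the replicate block 166, or 114 by tertiles, 64 when thinned, 147 without mesenchymal cells and 154 without the filter. By *Cdh5*, 0 in edgeR without a block became 41 in DESeq2, 48 without the filter, 10 by tertiles and 3 when thinned, and with the replicate block 185, or 226 by tertiles, 38 when thinned, 225 without mesenchymal cells and 169 without the filter. The direction of *Sox18* by *Runx1* turned in thinned cells, to log2 fold changes of 0.26 and, with the replicate block, 0.24, that of *Ets2* turned without replicate 1 (0.10, against -0.30 without replicate 2) and that of *Elk3* without replicate 2 (0.0020, against -0.28 without replicate 1), none of them called. Thinning also ended most calls in the gene lists. Thinned cells hold fewer counts and fewer genes were tested in them. The cause of the other changes was not tested. Leaving out each library in turn leaves 1 sum per group and a value with no test: it moved *Sox17* by *Runx1* between -2.26 and -1.91, *Etv6* between 1.48 and 2.63, and *Sox7* and *Sox17* by *Cdh5* between 1.76 and 4.12 and between 1.51 and 3.80.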
